A study of Oryza sativa Japonica Group with 36 samples.

Results

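The rice line C418 is a japonica restorer that is sensitive to cold, and its 3 arrays after 2 h at 4 °C and its 3 arrays without cold are described here, 6 of the 36 arrays in the whole series. They were chosen by their labels alone. All seedlings grew at 25 °C to the 3-leaf stage, and whole shoots were taken, each replicate from a separate pot. The control stayed at 25 °C, and its shoots taken at 2 h and at 24 h were pooled. Control and 2 h cold shoots therefore match in time of day only in part. The other line, K354, carries segments of the indica variety Bg300 in the C418 background, and its arrays at 2 h and in its control (6 arrays), with those of C418 after 6 h of cold (3 arrays), enter only where named. In whole shoots, fewer cells of a type and less RNA per cell cannot be told apart.

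Chilling is sensed by plant cells within minutes, and one of the earliest known responses is a rise of calcium in the cytosol, which calmodulin-like proteins, calcium-dependent protein kinases and CBL-CIPK modules read. The DREB1 proteins, also called CBF, are AP2-domain transcription factors that bind the DRE element in the promoters of cold-responsive genes, and in Arabidopsis and rice they are rapidly induced by cold. Chaperones such as the small heat shock proteins, by contrast, are best known from heat.

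Each value is the signal intensity of a probe set, and changes are log2 differences of means of 3 arrays, 2 h minus control, unless another contrast is named. DEGs passed a Benjamini-Hochberg adjusted p of 0.05 in limma and a change of more than 5-fold. On this rule 187 of 57258 probe sets were induced (0.327%) and 43 were repressed (0.0751%). Arrays of the groups did not overlap for any of the 230 DEGs, as was so for 13.8% of all probe sets with higher and 40.1% with lower cold values. The induced ones rose 5.05- to 92.3-fold and the repressed ones fell 5.09- to 18.6-fold, taking each fold as fitted. Just inside the 5-fold line lay LOC_Os01g11150, a putative gibberellin 2-beta-dioxygenase (2.34), and just outside it OsNAC3 (2.31) and LOC_Os02g56310, a putative calcium-dependent kinase (2.32). On the repressed side LOC4347709 (-2.35 ± 0.69) was the last inside and LOC4337946 (-2.31) the first outside. The cold arrays of LOC4347709 spread widely, at 156, 661 and 1897, against 1993, 3302 and 3919 in the control.

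Without the fold rule, 4019 probe sets (7.02%) were higher and 12400 (21.7%) lower at 2 h. Across all tested probe sets the median change was -0.13, and it reached -0.26 among probe sets of middling intensity and was -0.02 among the dimmest ones. Array medians lay between 55.5 and 56.6 at 2 h and between 62.3 and 62.5 in the control. With arrays centred on their medians the split became 7455 higher and 5883 lower, and with quantile normalization 6858 higher and 6504 lower, so the direction of small changes depended on the scale. As shares of all probe sets, 13% were higher and 10.3% lower with median centring, the background for the centred counts of gene lists. Poly-A control probe sets differed by 0.01 and hybridization controls by 0.07 between the groups. Shoot markers such as RBCS, CAB and PSAG (11 probe sets) had a median intensity of 6374 (range 10.5 to 14265), against 57.4 for 4 root probe sets and 35.0 for 10 seed storage probe sets, of which the brightest reached 1000.2.

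One array of the cold group stood apart among the induced genes. Replicate 1 was the lowest of the 3 cold arrays for 179 of the 187 induced probe sets, with a median gap of -0.55 on the log2 scale to the mean of the other 2 arrays, and replicate 3 was the highest for 161 (median gap 0.41). Among control arrays, replicate 1 was the lowest for 132 of the same 187. Without cold replicate 1 the rule gave 226 induced and 40 repressed probe sets, and without cold replicate 3 it gave 166 and 68. Of 86 named probe sets, OsABA8ox2 lost its call without cold replicate 1, and OsABA8ox2 and OsDREB1F without replicate 3, while the others kept their direction and side of the threshold.

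**Figure D1:**
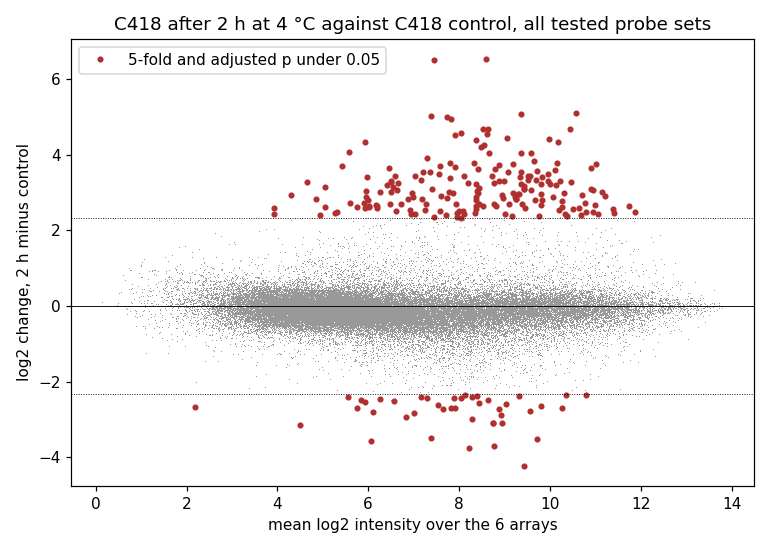
Log2 change of every tested probe set (2 h minus control, vertical) against its mean log2 intensity over the 6 arrays (horizontal), with DEGs in red and dotted lines at 5-fold. Induced DEGs, 187, outnumber the 43 repressed ones, while most of the cloud lies a little below 0.

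The genes with the largest increases on the array, LOC_Os08g36920 and LOC_Os09g28440, encode AP2/EREBP factors. LOC_Os08g36920 had 33.9, 39.2 and 48.2 in the control arrays and 2538, 3932 and 5064 after 2 h, a change of 6.53 ± 0.34 (SE, n = 3 per group, adjusted p = 2.02e-14). LOC_Os09g28440 went from 13.6, 20.3 and 22.6 to 1289, 1811 and 1965. Its control arrays lay below the 25th percentile of their array, so the increase was at least 59.5-fold with that percentile in place of the control. The C2H2 zinc finger gene LOC_Os03g60570 had 105, 114 and 123 without cold and 2865, 4239 and 4591 with it (5.07 ± 0.26), and its neighbour by locus number, LOC_Os03g60560, was induced as well (3.13). By the annotation in the study's supplement, which covers mainly DEGs and gives no background, the induced probe sets included 12 of AP2 factors, 8 of MYB, 5 of WRKY and 4 of VQ proteins, a group known as partners of WRKY factors. None of these 4 groups had a repressed DEG. Of 7 AP2/ERF factors listed by symbol outside the DREB1 family, none was higher and 1 was lower (median -0.05). Among all probe sets 7.02% were higher and 21.7% lower. With median centring 1 of the 7 was higher and none lower.

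OsABA8ox1, which encodes an abscisic acid 8'-hydroxylase and so an enzyme of ABA breakdown, rose from 200, 303 and 297 to 8295, 9086 and 9629 (5.10 ± 0.16, adjusted p = 8.55e-19). The groups lay far apart and the cold arrays were close to each other. The other members of the ABA list were lower, OsABA1, the zeaxanthin epoxidase of ABA synthesis, at -1.54 ± 0.14 and OsABA8ox2 at -0.55 ± 0.18. The last no longer passed with median centring (-0.40, adjusted p = 0.108). Other genes stood among the 10 largest increases with an annotation. LOC_Os03g19070, annotated as a long cell-linked locus protein, went from 38.5, 36.5 and 49 to 1041, 1229 and 1555, and LOC_Os02g09990, of unknown function, from 37.3, 101 and 103 to 1422, 2094 and 2158. LOC_Os04g48290, a putative MATE efflux protein, had 75.2, 76.5 and 86.6 in the control and 1286, 2270 and 2838 after 2 h.

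**Figure D2:**
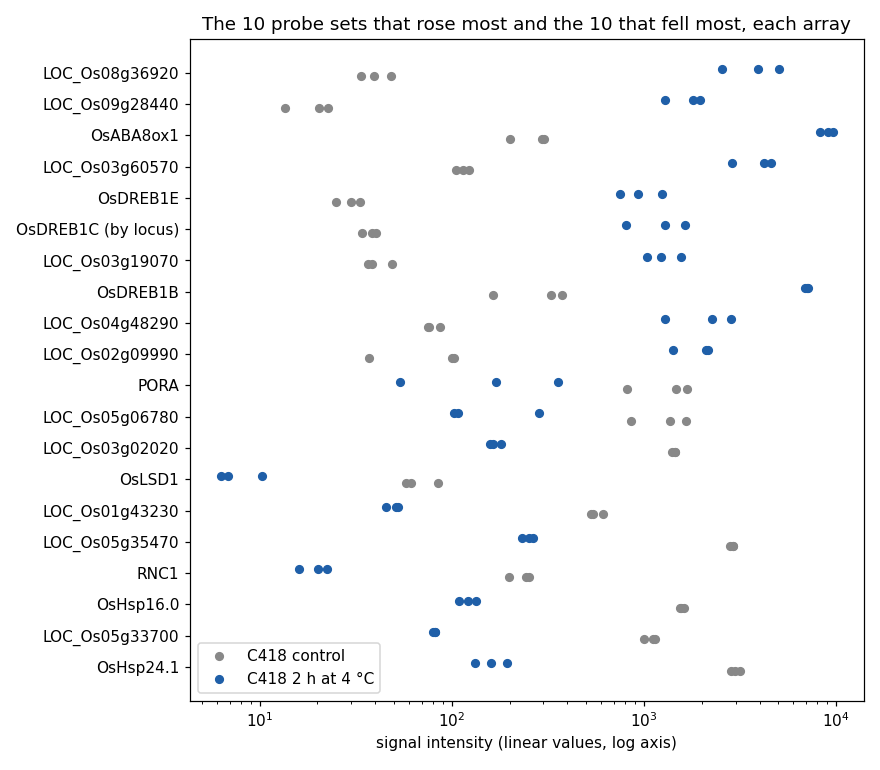
Signal intensity of each array (log axis) for the 10 annotated probe sets that rose most and the 10 that fell most, with control arrays in grey and 2 h arrays in blue. No control array overlaps a cold array in any row, and PORA and LOC_Os05g06780 have the widest spread among the repressed rows.

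Of the DREB1 family, the activators of the DRE-dependent cold response, OsDREB1A, OsDREB1B, OsDREB1E and OsDREB1G were induced DEGs at 2 h. OsDREB1E had 24.9, 29.9 and 33.2 in the control and 752, 933 and 1237 after 2 h (5.03 ± 0.32). OsDREB1B rose from 164, 375 and 327 to 6911, 7152 and 7087 (4.70 ± 0.21), and its cold arrays were nearly equal. OsDREB1A, the neighbour of OsDREB1B by locus number, went from 156, 278 and 240 to 5010, 4758 and 4347 (4.43 ± 0.18). Here cold replicate 1 was the highest of the 3, unlike for most induced genes. OsDREB1G had 75.2, 92.5 and 76.6 without and 1399, 1968 and 2552 with cold (4.56 ± 0.27).

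For OsDREB1C, the sources that name probe sets disagreed. The probe set that the study's supplement assigns to its locus, LOC_Os06g03670, rose from 34, 38.4 and 40.4 to 803, 1291 and 1639 (4.99 ± 0.29, adjusted p = 2.34e-13). The platform annotation gives the gene 3 other probe sets. The brightest of them had 63.9, 56.1 and 60.6 in the control and 59.9, 58.8 and 54.3 after 2 h, and the arrays overlapped (-0.06 ± 0.24, adjusted p = 0.871). Changes of 0.60 and 0.19 were found on the remaining pair, whose intensities were at most 25.3. Which of these probe sets measures the transcript was not tested, as no probe sequences were used. OsDREB1F (LOC_Os01g73770) was dim in both groups, at 8.33, 9.13 and 8.5 and 12.7, 30.1 and 27.8, and its control lay below the 25th percentile, so no fold is given. Its change of 1.34 (adjusted p = 0.0372) was 0.0049 with a floor at that percentile.

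The study named 22 genes as a set related to OsDREB1C, and since it chose them on these samples, neither their direction nor their difference between the lines is independent evidence. Of these 22, 21 were induced DEGs at 2 h, where 0.327% of all probe sets were, with changes of 2.17 to 4.06 and a median of 3.05. LOC_Os05g47960, of unknown function, rose most, from 55.1, 130 and 133 to 1281, 1802 and 1917. The AP2 gene LOC_Os07g47790 went from 11.7, 11.2 and 13, below the 25th percentile, to 108, 170 and 208, at least 5.6-fold. LOC_Os08g34580, a putative trehalose-6-phosphate synthase, had 96.2, 96.1 and 92.6 in the control and 372, 1173 and 1691 after 2 h, so that the cold arrays alone spanned more than 4-fold. The F-box gene LOC_Os04g33820 (2.17 ± 0.31) was the one that did not reach 5-fold.

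Calcium signaling genes followed. Of 26 calmodulins and calmodulin-like proteins, the sensors that bind calcium through EF hands, 11 were higher and 1 lower at adjusted p under 0.05, against 7.02% and 21.7% of all probe sets, and their median change was 0.25. With median centring 13 were higher and none lower. CML15 rose from 270, 802 and 723 to 6156, 7010 and 7270 (3.66 ± 0.29) and CML31 from 462, 964 and 1165 to 5828, 6616 and 6984 (3.01 ± 0.25). In both, control replicate 1 was well below the other controls, and the groups did not overlap. CML27 (2.73 ± 0.12) and CML16 (2.64 ± 0.15) were the other DEGs of the list. OsACA7, a calcium pump of the plasma membrane type by its annotation, had 51.2, 38.5 and 43 in the control and 151, 328 and 630 in the cold (2.84 ± 0.29). It was the single member of 5 calcium pumps that passed the test as scaled by the authors, and 3 of 5 were higher with median centring.

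In the lists of kinases that read calcium, few changes were large. Of 20 calcium-dependent protein kinases, 3 were higher and 2 lower (5 and 1 with median centring), beside 7.02% and 21.7% of all probe sets, with a median of -0.13, and none was a DEG. OsCDPK21 went from 27.2, 24.5 and 33.2 to 51.9, 89.9 and 109 (1.51 ± 0.25), and OsCDPK13 rose by 1.06 ± 0.15. The probe set of LOC_Os02g56310, the putative calcium-dependent kinase just outside the 5-fold line, rose more (2.32 ± 0.20). It was not in this list, which was matched by symbol. Among 31 CBL sensors and CIPK kinases, 9 were higher and 8 lower (12 and 7 with median centring, median 0.03 as scaled by the authors), so that the lower share was near that of all probe sets. The largest increases were those of OsCIPK29 at 1.16 ± 0.13 and CBL2 at 0.89 ± 0.09. OsBIMK1, a MAP kinase, had 833, 829 and 792 in the control and 1761, 3229 and 4244 in the cold (1.82 ± 0.25), and of 17 MAP kinases and their kinases 3 were higher and 2 lower, or 8 and 1 with median centring.

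Other regulators that rose included OsMYB2, from 126, 133 and 128 to 992, 1614 and 1717 (3.44 ± 0.18), and OsMyb4, known for cold tolerance when overexpressed in Arabidopsis (2.66 ± 0.17). Of 9 MYB factors with such a symbol, 5 were higher and 2 lower (5 and 1 with median centring). Among all probe sets 7.02% were higher and 21.7% lower, the latter near the share of lower MYB factors. OsWRKY24 had 295, 288 and 287 in the control and 1847, 3017 and 3699 in the cold (3.24 ± 0.20). OsWRKY71 was measured by probe sets that differed, the brightest at 1.48 and another at 2.87. Of 6 WRKY factors 3 were higher and 1 lower, or 3 and none with median centring. OsNAC3 led 8 NAC factors, of which 3 were higher and none lower (4 and none with median centring). OsSAP17, an AN1 zinc finger protein, rose from 88.8, 183 and 177 to 912, 1452 and 1894 (3.26 ± 0.28). Of 13 stress-associated zinc finger proteins 6 were higher and none lower (7 and none with median centring), OsiSAP1 among them (1.64 ± 0.14).

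Hormone and sugar lists held few large changes. OsTPP1, a trehalose-6-phosphate phosphatase, had 97.2, 107 and 141 in the control and 1292, 2891 and 4145 in the cold (4.45 ± 0.26). Of the 9 trehalose enzymes listed, 2 others were lower (1 with median centring), a share near the 21.7% of all probe sets. LOC_Os08g34580, the putative trehalose-6-phosphate synthase of the OsDREB1C set, rose too (3.25 ± 0.32). It was not counted in this list, which was matched by symbol. Of 56 protein phosphatases 2C, several of which are negative regulators of ABA signaling, 13 were higher and 10 lower (median 0.00), and 22 were higher and 4 lower with median centring, with OsPP2C32 at 2.61 ± 0.13 the only DEG. OsSAPK9, an SnRK2 kinase, rose by 1.67 ± 0.13, and of 10 SnRK2 kinases 2 were higher and 2 lower (median -0.01). With median centring these were 2 and none. Of 17 proteins with a ZIM domain, which include the JAZ repressors of jasmonate signaling, 6 were higher and 4 lower, or 7 and 2 with median centring. OsJAZ3 (LOC_Os03g08310) had 94.9, 85.2 and 155 in the control and 421, 692 and 795 in the cold, and OsJAZ13 109, 144 and 158 and 370, 1065 and 1349. OsJAZ10 rose by 1.88 ± 0.18 and OsJAZ7 fell by 0.84 ± 0.23. AOS, the allene oxide synthase of jasmonate synthesis, rose by 1.64 ± 0.16. Of 18 jasmonate synthesis genes, however, 3 were higher and 5 lower (median -0.08), or 3 and 2 with median centring. Among all probe sets 7.02% were higher and 21.7% lower. OsDhn1, a dehydrin, rose by 1.32 ± 0.10. BC1L9, a COBRA-like protein, had 39.4, 42.4 and 39 in the control and 316, 701 and 1016 in the cold on one probe set (3.92 ± 0.32) and 2.44 on another.

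Chaperone genes led the repressed side. OsHsp24.1, annotated as a mitochondrial small heat shock protein, fell from 2976, 2824 and 3164 to 132, 161 and 193 (-4.22 ± 0.17, adjusted p = 7.25e-17), and OsHsp16.0 from 1551, 1549 and 1615 to 122, 109 and 133 (-3.70 ± 0.15). All cold arrays of both genes were far below all controls. Of 19 small heat shock proteins, 9 were lower and 2 higher, with a median of -0.25, beside 21.7% and 7.02% of all probe sets, and 6 were lower and 3 higher with median centring. Among 8 large chaperones 4 were lower and none higher (3 and none with median centring), the lowest being CLPB-M at -1.62 ± 0.16 and OsBiP1, the ER chaperone, at -1.58 ± 0.15. Heat stress transcription factors went both ways, with 5 of 20 higher and 7 lower, or 5 and 6 with median centring. OsHsf-24 fell from 1208, 1079 and 1331 to 183, 182 and 185 (-2.71 ± 0.16), OsHsf-08 was at -1.78 ± 0.23, and OsHsf-07 rose from 59.1, 53.8 and 69.9 to 232, 396 and 663 (2.70 ± 0.28).

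The other large decreases were of mixed function. LOC_Os05g33700, a 4F5 family protein, had 1112, 1001 and 1146 in the control and 81.4, 80.2 and 81.4 in the cold, and LOC_Os05g35470, with a dienelactone hydrolase domain, 2920, 2813 and 2900 and 233, 252 and 264. LOC_Os03g02020, with a stress-responsive A/B barrel domain, fell from 1459, 1460 and 1398 to 158, 165 and 181. LOC_Os01g43230, of unknown function, went from 531, 611 and 544 to 45.6, 51.4 and 52.5. RNC1, known in maize as a chloroplast splicing factor, went from 244, 198 and 253 to 20.2, 16.1 and 22.5 and OsLSD1, a zinc finger regulator of cell death, from 84.8, 61.7 and 57.9 to 10.3, 6.84 and 6.28. RNC1 fell at least 8.78-fold, and OsLSD1 at least 2.56-fold, since their cold arrays lay below the 25th percentile. PORA, which reduces protochlorophyllide in chlorophyll synthesis, had 814, 1462 and 1672 in the control and 53.7, 170 and 357 in the cold (-3.08 ± 0.67). Its spread was wide, and it lost its call with an unmoderated test of each probe set alone in place of limma. Wide too was that of LOC_Os05g06780, a lipid transfer type protein (-3.09 ± 0.60). A pair of H/ACA ribonucleoprotein subunits, LOC_Os07g44190 (-2.57) and LOC_Os11g37080 (-2.42), were repressed too.

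Smaller decreases were counted in several lists, beside 21.7% of all probe sets that were lower. Of 23 ribosomal proteins 19 were lower and none higher (median -0.49), and 13 were lower with median centring. RPL11 fell from 2480, 2169 and 2236 to 938, 899 and 975. Of 7 histone and chromatin assembly genes 5 were lower (4 with median centring), H2B.6 by -0.94 ± 0.10, and of 15 catalases, peroxidases and superoxide dismutases 8 were lower (5 with median centring), CAT-B at -0.77 ± 0.14 and CAT-A at -0.70 ± 0.11. Of 28 DNA replication proteins 10 were lower, but 4 with median centring, and their median was -0.22, beside -0.13 for all probe sets. Of 24 aquaporins 8 were lower (7 with median centring) while 16 did not pass, with OsTIP1 at -1.77 ± 0.29. In the chlorophyll list 6 of 11 were lower (4 with median centring), PORB at -1.40 ± 0.24.

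IAA23, an Aux/IAA repressor of auxin signaling, rose from 309, 385 and 391 to 930, 1257 and 1835 (1.84 ± 0.19) on one probe set and by 2.44 on another, while IAA9 was at -0.95 ± 0.13. Of 26 Aux/IAA genes 3 were higher and 7 lower, the latter near the 21.7% of all probe sets, and 5 were higher and 2 lower with median centring.

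Clock genes changed as well. GI fell from 3019, 3091 and 3360 to 483, 516 and 459 (-2.70 ± 0.09). Of 7 clock genes 4 were lower and 2 higher, beside 21.7% and 7.02% of all probe sets, and the counts were the same with median centring. OsPRR95 (-1.55 ± 0.19) and OsPRR37 (-1.49 ± 0.12), pseudo-response regulators, were lower, and OsPCL1 rose by 1.22 ± 0.18. Cold and time of day cannot be told apart for these genes, because the control was pooled over 2 h and 24 h.

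**Figure D3:**
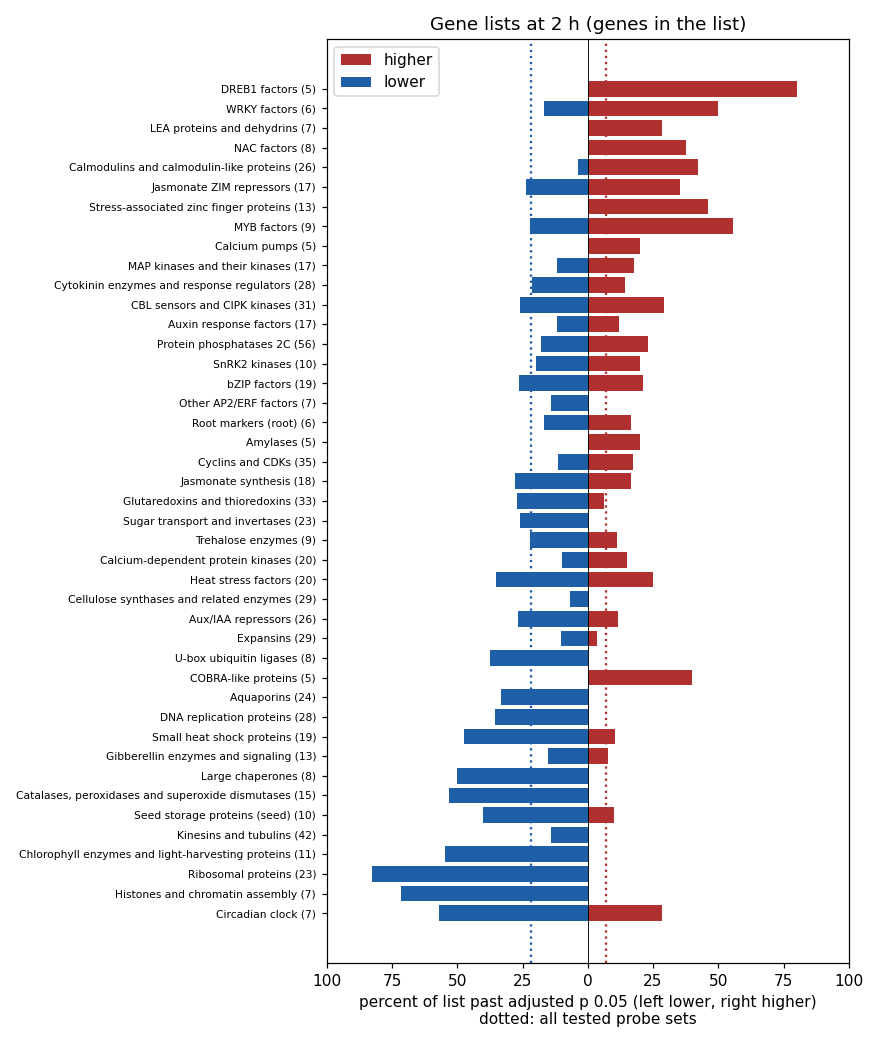
Percent of the genes of each list with 5 or more genes that were higher (red, right) or lower (blue, left) at adjusted p under 0.05, ordered by the median change of the list, with dotted lines at the shares of all tested probe sets, 7.02% and 21.7%. DREB1 factors, with OsDREB1C taken at its brightest platform probe set, stand at the top with 4 of 5 higher, and ribosomal proteins have the longest blue bar with 19 of 23 lower.

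In K354 itself 41 probe sets were induced (0.0716%) and 45 repressed (0.0786%) on the same rule, among them 34 of the 187 and 18 of the 43 DEGs of C418. The 2 h response of K354 was set against that of C418 in an interaction contrast (K354 minus C418). Over all probe sets 709 had a lower response in K354 (1.24%) and 219 a higher one (0.382%). Among the 187 probe sets induced in C418, 133 had a lower response in K354 and none a higher one, and their median change was 3.01 in C418 and 1.46 in K354. Selection for a large change in C418 favours a smaller value in K354, so these counts are a description. Over all probe sets the count lower in K354 was 462 without C418 cold replicate 3 and 339 with arrays scaled to the poly-A controls, and the count higher in K354 was 668 with these groups fitted alone. Of the 43 repressed, 5 differed, all with a smaller decrease in K354.

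Some DREB1 genes passed the interaction test and others did not, and the genes were not tested against each other. OsDREB1G rose by 4.56 in C418 and 1.20 in K354, a difference of -3.36 (adjusted p = 4.14e-06), with a geometric mean of 357 in the K354 control and 81.1 in that of C418. OsDREB1E (-2.94, adjusted p = 0.000195) and the OsDREB1C probe set of the supplement (-2.48, adjusted p = 0.000469) also had a lower response in K354. For OsDREB1A and OsDREB1B the difference was -0.85 and -0.71 and did not pass (adjusted p = 0.114 and 0.384), which does not show equal responses. Of the 22 genes of the OsDREB1C set, 15 had a lower response in K354, beside 1.24% of all probe sets, but the study assembled the set around a difference between the lines. BC1L9 rose in C418 but was at -0.57 in K354 (-4.49, adjusted p = 1.08e-06), where its control was higher, 205 as a geometric mean. LOC_Os08g34580 was at -0.35 in K354 (-3.60, adjusted p = 2.09e-05), and OsWRKY24 at 0.27 (-2.97, adjusted p = 2.73e-07). BC1L9 and OsWRKY24 were named for large changes in C418, which favours a smaller change in K354. OsHsp24.1 fell in both lines, by 4.00 in K354, and GI by 2.91.

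**Figure D4:**
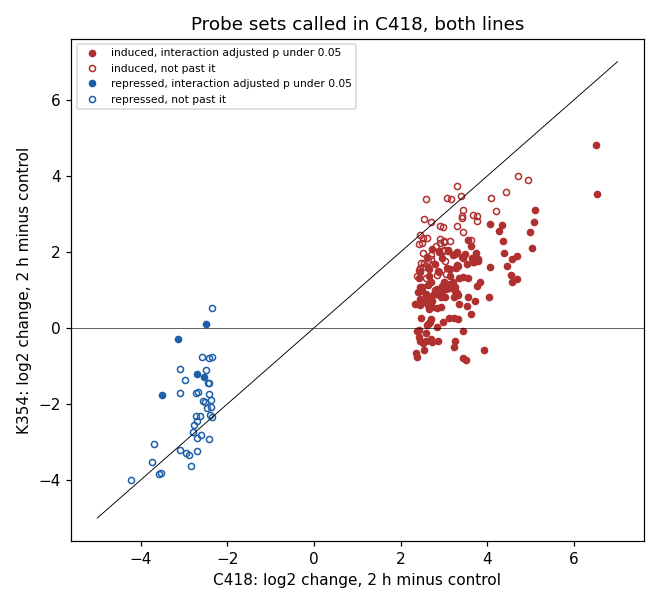
Log2 change at 2 h in K354 (vertical) against that in C418 (horizontal) for the 230 DEGs of C418, with a line of equal change. Filled points pass the interaction test at adjusted p under 0.05, and 133 of 187 induced ones do, all below the line.

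From 2 to 6 h in C418, as a contrast of its own between these groups, 15 probe sets rose more than 5-fold (0.0262%) and 2 fell (0.00349%). Without 6 h replicate 3 these were 48 and 14, and without 2 h replicate 3 they were 29 and 1. At adjusted p alone, 31 of the 187 induced probe sets were higher at 6 h than at 2 h and 49 lower, while 7.86% and 3.9% of all probe sets were. Selection for a high 2 h value favours the latter, and time of day cannot be told apart from time in the cold. OsJAZ3 rose further by 2.72 (adjusted p = 4.63e-07), OsJAZ13 by 2.21, OsACA7 by 1.78 and OsMyb4 by 1.49. OsDREB1F reached a geometric mean of 166 at 6 h, which was 2.57 above its dim 2 h level on the log2 scale with the floor at the 25th percentile. Lower again at 6 h were OsSAP17 (-1.69, adjusted p = 0.000211), OsDREB1E (-1.36, adjusted p = 0.00576) and GRXS5, a glutaredoxin (-1.07). In the OsDREB1C set, which the study chose on these samples, 11 of 22 were lower at 6 h than at 2 h and none higher. The OsDREB1C probe set of the supplement went the other way, by 0.90 (adjusted p = 0.0412). OsABA8ox1 was at 0.03 from 2 to 6 h (adjusted p = 0.94).

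**Figure D5:**
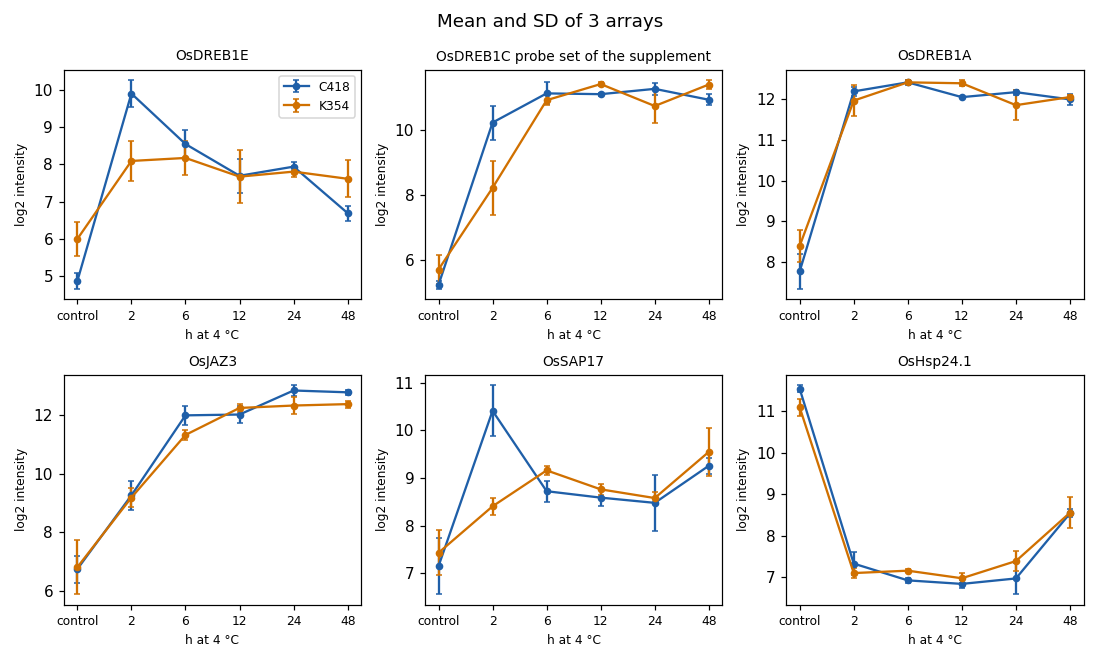
Log2 intensity (mean and SD of 3 arrays) of 6 genes in C418 (blue) and K354 (orange), in the control and after 2 to 48 h at 4 °C. OsDREB1E and OsSAP17 peak at 2 h in C418, and OsJAZ3 climbs from 2 to 6 h. OsHsp24.1 is below its control from 2 h to 48 h in both lines.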

How the data were processed

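RNA of whole shoots was hybridized to Affymetrix rice genome arrays. The authors deposited linear signal intensities. Their methods give GCOS for raw files and dChip (invariant set) for normalization, whereas MAS5 stands in the processing notes, and which one fixed the deposited scale is not given in the sources used here. Of 57381 probe sets, 123 array controls were left out and 57258 tested. Their log2 values entered lmFit and eBayes of limma 3.58.1 (R 4.3.3) as 1 model of 12 groups of 3 arrays, with Benjamini-Hochberg adjustment over all tested probe sets. Contrasts were C418 2 h minus control, the interaction with K354, and C418 6 h minus 2 h. SAM, which the methods name, was not run.

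The platform table gave 1 gene for 22436 probe sets and several for 95. Names come from RefSeq (ASM3414082v1) and, for 1632 probe sets, loci and descriptions from the study's supplement. A gene in a list was taken at its brightest probe set, and 44 lists were matched by gene symbol. Probe sets ending in _s_at or _x_at can match related genes. Named genes were the 10 DEGs that rose most and the 10 that fell most with an annotation and arrays that do not overlap, DREB1 genes, the study's OsDREB1C set and up to 4 members of each list. Members and lists were chosen with earlier results of these data known, and the symbol patterns were written after the reference tables were at hand. LOC_Os03g60560, LOC_Os07g44190, LOC_Os11g37080 and the genes at the 5-fold line were chosen after their values were seen. The fit was tested on simulated data. Replicates came from separate pots. Alternatives were other call rules, scalings, filters, floors, a replicate block and leaving out each array. Tables and figures were made with python 3.11.15, pandas 2.3.3, numpy 2.4.6 and matplotlib 3.10.9.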

Additional observations from a re-analysis of the deposited data

Results flagged for a closer look

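Named genes whose 2 h response differed between the lines at an adjusted p under 0.05 in limma's interaction contrast are given here as K354 minus C418 on the log2 scale. Naming genes for a large change in C418 favours a smaller change in K354, so these differences are a description. A difference below -2.5 was found for BC1L9 (-4.49), LOC_Os08g34580 (-3.60), LOC_Os04g48290 (-3.38), OsDREB1G (-3.36), LOC_Os08g36920 (-3.02), LOC_Os07g47790 (-2.99), OsWRKY24 (-2.97), OsDREB1E (-2.94), OsTPP1 (-2.84), LOC_Os05g35500 (-2.82), LOC_Os02g09990 (-2.79) and LOC_Os01g51670 (-2.63). Between -2.5 and -1.5 lay OsDREB1C (probe set of the supplement) (-2.48), OsHsf-07 (-2.46), LOC_Os05g47960 (-2.45), OsPP2C29 (-2.30), LOC_Os03g60570 (-2.30), OsSAP17 (-2.28), GRXS5 (-2.21), OsABA8ox1 (-1.99), OsBIMK1 (-1.94), OsCDPK21 (-1.85) and LOC_Os09g28440 (-1.68). Smaller differences were those of IAA23 (-1.37), OsMyb4 (-1.29), OsDhn1 (-1.04), CML16 (-1.03), OsCDPK13 (-0.96), OsCIPK29 (-0.94), OsiSAP1 (-0.90), AOS (-0.87), OsPP2C32 (-0.74), CML27 (-0.67) and OsWRKY71 (-0.61). A higher value in K354, that is, a smaller decrease, was found for LOC_Os01g43230 (1.72) and OsLSD1 (2.85). With arrays floored at their 25th percentile, where a group was wholly below it, the difference was 1.07 for OsLSD1, -2.55 for LOC_Os07g47790, -1.48 for LOC_Os09g28440 and -1.48 for OsCDPK21, so the fitted values of these 4 genes are not exact sizes. A second probe set was at 0.01 for IAA23 and at -1.36 for OsWRKY71. Each difference also holds the control levels of both lines. OsABA8ox1 had geometric means of 698 in the K354 control and 262 in that of C418, and of 6009 and 8986 after 2 h. For LOC_Os02g09990 the control was lower in K354, 51.3 against 72.9.

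Control probe sets of the array, which enter no comparison, also differed. The 25S rRNA probe set was 0.39 higher on the log2 scale after 2 h than in the control (intensities of 1067.9 to 1475 and 925 to 1005), and ubiquitin control probe sets were 0.15 higher, while those of cyclophilin were at -0.73.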

How the results depend on the processing

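With a 2-fold threshold the C418 comparison gave 824 induced and 1142 repressed probe sets, and no other setting but those that left out an array moved these counts by more than 1.5 times. Leaving out each array in turn gave 166 to 226 induced and 40 to 68 repressed ones, the 68 without cold replicate 3. For the interaction it gave 462 to 856 probe sets lower in K354 and 126 to 221 higher, with 143 or fewer when K354 cold replicate 1 or 2, K354 control replicate 2, C418 cold replicate 2 or C418 control replicate 1 or 3 was left out. Scaling to the poly-A controls gave 339 and 130, a floor at the 25th percentile 374 higher and the groups compared alone 668 higher. Between 2 and 6 h, leaving out arrays gave 12 to 48 higher and 1 to 14 lower probe sets (1 without 2 h replicate 3 or 6 h replicate 2), and the poly-A scaling 9 and 11. The cause was not tested.

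The replicate block gave 187 induced and 43 repressed probe sets, 722 and 228 in the interaction and 15 and 2 between 6 and 2 h. Same-numbered cold and control arrays had residual correlations of 0.17, -0.03 and 0.06, so the numbers were not taken as pairs. Of 1545 values of named genes under alternatives, 1525 kept their direction and side of the threshold, 16 lost the call (OsDREB1F, OsABA8ox2 and PORA) and 4 changed sign. These were platform probe sets of OsDREB1C, the brightest at 0.10 with quantile normalization and 0.091 with median centring, and both others at -0.090 with the floor. The number of arrays limits the precision, and for dim probe sets so does the floor of the signal.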
